A study of Rattus norvegicus with 34 samples.

Results

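A segment of rat chromosome 1, chr1:53800001-56400000 of the Rnor_6.0 genome build, was profiled for DNA methylation signal in sperm. It holds 2600 of the 2782040 windows of 1 kb in the deposited tables. The segment was chosen on readout values, namely windows with lower signal in F2 ifosfamide than in F1 control pools, so the values of that comparison are given as a description and support nothing by themselves. The question was whether its lower F2 windows belong to 1 regional shift. Flanks of the same length, chr1:51200001-53800000 and chr1:56400001-59000000, were not used in that choice.

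Ifosfamide is an alkylating chemotherapy drug. Outbred Hsd: Sprague Dawley SD males of the F0 generation were injected in puberty, on days 26, 29 and 32 of age, with 8.5 mg/kg ifosfamide or with 1.1 mL/kg phosphate-buffered saline. No F1 or F2 animal was treated. Each group used here had 6 pools of cauda epididymal sperm, which were F1 control (3 to 4 males per pool, saline lineage), F1 ifosfamide (3 to 4 males per pool) and F2 ifosfamide (8 to 9 males per pool). The lineages descended from 3 saline-treated and 5 ifosfamide-treated F0 males of an outbred stock, so treatment and inherited sequence differences between founders cannot be told apart. Generation, pool size and lineage all differ between F2 ifosfamide and F1 control, and cannot be told apart either. The labels count 43 F2 ifosfamide males, whereas 6 pools of at least 8 males need 48, so some F2 pools may share males or hold fewer. Pools are taken as the replicates, and p-values judge a difference between groups against the spread between pools.

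In methylated DNA immunoprecipitation sequencing (MeDIP-seq), an antibody against methylated cytosine captures DNA fragments, which are then sequenced. Read density over a window rises with methylation, with the density of CpG sites (the cytosine-guanine pairs that carry most methylation in mammals) and with the number of copies of the sequence in the genome. Mature sperm DNA is methylated over most of the genome, while CpG-rich promoters are usually free of methylation. Windows are given by position only, since neither annotation nor sequence of the Rnor_6.0 assembly was used, and no gene, repeat or sequence content is given. The sperm label was not checked against cell type markers.

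Libraries held 23336048 to 39440265 window counts. The signal is given in CPM, which are counts scaled to a common library size, corrected by the trimmed mean of M-values (TMM) method. The share of a library's counts in the 10% of windows with the highest mean signal, a measure of how strongly the pull-down was enriched, was 39.3% to 40.7% in F1 control, 39.8% to 40.5% in F1 ifosfamide and 39.6% to 40.7% in F2 ifosfamide pools. These ranges overlapped. F1 ifosfamide pools 1 and 2 were the most alike in their group, since the chi-square between their window counts, divided by its degrees of freedom, was 1.06, whereas other pairs of that group gave 1.09 to 1.54.

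The segment had an uneven and strong MeDIP signal in all pools. Its mean over the 18 pools was 0.859 CPM per window, against 0.441 in the upstream flank, 0.353 in the downstream flank and 0.399 over chromosome 1. The ratio of the segment to both flanks was above 1 in 18 of 18 pools and ranged from 2.07 to 2.23. The median window of the segment, in contrast, had 0.182 CPM, below the median of 0.226 over chromosome 1. The higher mean therefore came from a small number of windows.

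A total of 83 windows, 3.19% of the segment, held 50% of its signal. In the upstream and downstream flanks 18.2% and 15.2% of windows were needed for the same share. The 26 windows with the highest signal, the top 1%, carried 29.7% of the signal of the segment, but 8.54% and 9.34% in the flanks. A signal of at least 5 CPM was reached by 86 windows of the segment, 4 of the upstream flank and 2 of the downstream flank.

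Empty windows were also frequent. No count in any of the 18 libraries was found in 594 windows of the segment, or 22.9%, against 2.38% and 5.0% in the flanks and 4.71% over the genome. Runs of at least 10 empty windows occurred 11 times in the segment and covered 418 windows, whereas each flank had 1 such run. The longest were chr1:55002001-55151000 with 149 windows, chr1:56059001-56146000 with 87 windows and chr1:55528001-55581000 with 53 windows. Whether these are gaps in the assembly or sequence to which reads cannot be assigned was not tested. A further 14 windows of the segment, against 8 and 1 in the flanks, stood alone, with counts 10 or more times those of each neighbour.

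**Figure D1:**
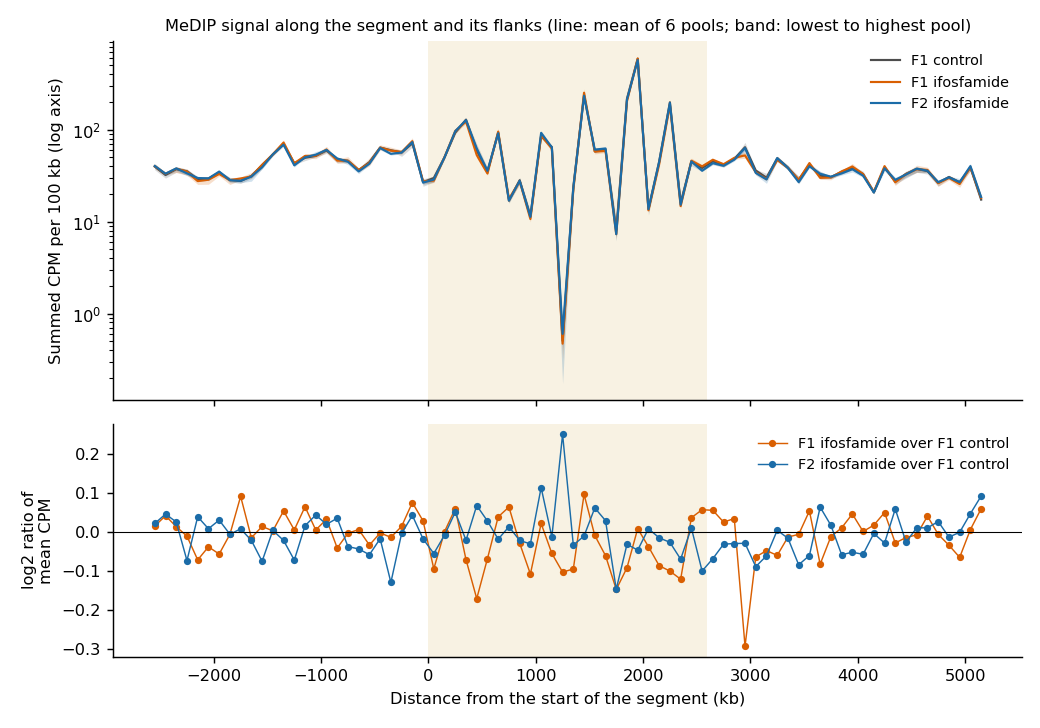
MeDIP signal along the segment (shaded) and its flanks, in 100 kb bins. The upper panel gives summed CPM on a log axis (line: mean of 6 pools; band: lowest to highest pool) and the lower panel gives the log2 ratio of the group means. The 3 groups follow the same course, with 0.505 to 591 CPM per bin in F1 control; the F2 ratio lies on both sides of 0.

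The shape of the profile was shared by the 3 groups. The strongest 100 kb bin, chr1:55700001-55800000, summed to 591 ± 13.98 CPM in F1 control, 595 ± 9.49 in F1 ifosfamide and 573 ± 6.89 in F2 ifosfamide pools (SD, n = 6 each). The weakest, chr1:55000001-55100000, summed to 0.505 ± 0.0844, 0.470 ± 0.118 and 0.601 ± 0.232 CPM in the same order (SD, n = 6). Strong and nearly empty stretches thus lay within 1 Mb of each other in every group. In the strongest bin the F2 pools, at 561 to 579 CPM, lay below the F1 ifosfamide pools, at 582 to 607, and overlapped the F1 control pools, at 565 to 606.

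The window with the highest signal, chr1:55218001-55219000, had 49.3 to 55.9 CPM in F1 control (median 52.3), 44.4 to 73.8 in F1 ifosfamide (median 59.3) and 50.8 to 59.3 in F2 ifosfamide pools (median 53.3). The groups overlapped, and the 2 highest values, 69.6 and 73.8 CPM, were those of F1 ifosfamide pools 1 and 2. The next windows were chr1:55736001-55737000, with a mean of 44.2 CPM over the 18 pools, and chr1:55707001-55708000, with 36.3. None of these 3 windows passed the test in any comparison.

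Summed over the segment, the groups differed little. The sum was 2206.5 to 2281.3 CPM in F1 control (median 2251.4), 2143.0 to 2296.1 in F1 ifosfamide (median 2217.4) and 2192.5 to 2252.3 in F2 ifosfamide pools (median 2236.7). The 3 ranges overlapped, and the F1 ifosfamide pools were the most widely spread. The mean was 2249.5 ± 27.3 CPM in F1 control, 2224.4 ± 56.6 in F1 ifosfamide and 2228.4 ± 26.4 in F2 ifosfamide (SD, n = 6 each). F2 ifosfamide was thus 0.939% below F1 control, a log2 difference of -0.014 with an SE of 0.010, which is within the SD between pools.

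Relative to the flanks and with all windows included, the groups differed by less than the spread between pools. The ratio of mean CPM per window was 2.17 ± 0.0376 in F1 control, 2.15 ± 0.0582 in F1 ifosfamide and 2.17 ± 0.0335 in F2 ifosfamide pools (SD, n = 6 each). The log2 ratio of F2 ifosfamide differed from that of F1 control by -0.0005, with an SE of 0.0137. It differed from that of F1 ifosfamide by 0.014, with an SE of 0.0183.

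F1 ifosfamide was compared with F1 control by an exact permutation test over all 924 splits of the 12 pools, 2-sided, with Benjamini-Hochberg adjustment over 8 such tests. The log2 sum of the segment differed by -0.016 (SE 0.0166, exact p = 0.351, adjusted p = 0.552) and the log2 ratio to the flanks by -0.014 (SE 0.0189, exact p = 0.457, adjusted p = 0.552). Neither difference passed the test. The control pools of this test are also those against which the segment was chosen.

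The flanks gave the same picture in the other 6 tests. Log2 differences of the summed signal were -0.020 to 0.011, and adjusted p was 0.264 to 1.0 by the exact permutation test. The lowest unadjusted p was 0.0498, for the upstream flank in F2 ifosfamide against F1 ifosfamide (log2 difference -0.020, SE 0.0115, adjusted p = 0.264). Without F1 ifosfamide pool 6 the adjusted p of that difference was 0.0346 (exact permutation test), and its range without each pool in turn was 0.0346 to 0.456. With flanks shortened to 1 Mb, the downstream flank was lower in F2 ifosfamide than in F1 control by 0.042 on the log2 scale (adjusted p = 0.0173, exact permutation test).

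**Figure D2:**
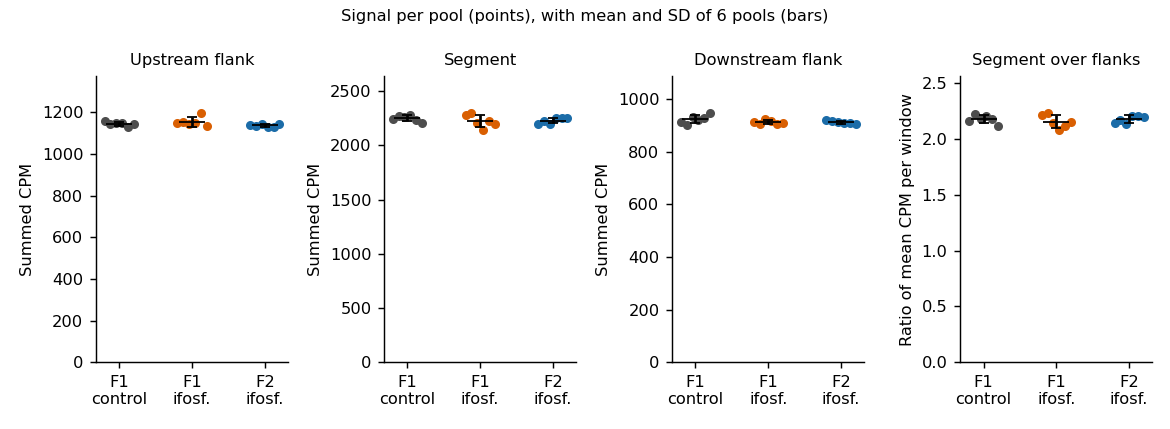
Summed CPM of each flank and of the segment, and the ratio of mean CPM per window in the segment to that in both flanks. Points are pools, and bars give the mean and SD of 6 pools; the axes start at 0. Segment sums lie between 2143.0 and 2296.1 CPM in all 18 pools, and the groups overlap.

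Window by window, the comparison of F2 ifosfamide with F1 control could test 895 of the 2600 windows of the segment, since the other windows held too few counts. The test was edgeR's quasi-likelihood test, with adjustment over all windows tested in the genome, and a window is called at an adjusted p below 0.05. Of the 895 windows, 3 were called lower and 0 higher. Over the genome 0.011% of tested windows were called lower and 0.016% higher. Nothing is read from this excess, because the segment was chosen for its lower F2 windows. At an unadjusted p below 0.05, 92 windows of the segment, or 10.3%, stood out in either direction, against 9.24% over the genome. For 910 windows of the segment in this comparison, p-values stand in the authors' deposited table, which holds 2 lower and 0 higher windows at its adjusted p below 0.05, against 0.0109% called lower over its tested windows.

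The fold changes of the other windows were centred near 0. The median log2 fold change of the segment was -0.014, with 52.1% of tested windows below 0. Without the 3 called windows it was -0.011. In the upstream flank it was -0.014 and in the downstream flank -0.002, while it was -0.001 over all tested windows. The segment median thus lay at the value of its upstream flank, and the SD of this median between pools was 0.018. When each pool was left out in turn, the median was -0.018 to -0.003.

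Bins of 100 kb lay on both sides of 0. Among the 20 bins of the segment with at least 20 tested windows, 13 had a median log2 fold change below 0 and 7 above 0, over a range of -0.13 to 0.17. In the upstream flank 12 of 25 and in the downstream flank 13 of 23 such bins were below 0, over ranges of -0.16 to 0.17 and -0.13 to 0.13. In 0 of the 26 bins of the segment did the sums of F2 and F1 control pools fail to overlap. Over the segment and flanks, the only bin without overlap and with F2 lower lay in the upstream flank, chr1:53400001-53500000, at 59.7 ± 1.65 CPM in F1 control and 54.6 ± 1.05 in F2 ifosfamide pools (SD, n = 6).

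In order along the chromosome, however, the bins below 0 gathered in the last part of the segment. The longest run of bins with a median below 0 covered 7 bins, chr1:55500001-56200000, with bin medians of -0.22 to -0.03, and 3 of these bins had fewer than 20 tested windows. It holds the called windows at 55649001 and 56026001. Over its 206 tested windows the median log2 fold change was -0.07, with 62.1% below 0. The summed signal of the run was 1051.6 to 1114.7 CPM in F1 control (median 1094.3), 1038.1 to 1084.6 in F1 ifosfamide (median 1064.0) and 1040.3 to 1085.5 in F2 ifosfamide pools (median 1061.0). The groups overlapped, and both ifosfamide groups had means below that of F1 control, at 1062.5 ± 16.1 and 1061.7 ± 15.0 against 1090.7 ± 23.6 CPM (SD, n = 6 each). In the flanks the longest runs in this comparison covered 5 and 3 bins, with medians of -0.06 and -0.06 over their windows. In bins of 200 kb the run covered the last 4 bins of the segment and the first 3 bins of the downstream flank, so it did not end at the border of the segment. The upstream flank also had a run of 4 such bins, chr1:53000001-53800000. Its windows had a median of -0.05 with 58.8% below 0, against -0.06 and 60.3% for the 4 bins of the segment. In F1 ifosfamide against F1 control, the longest run of 200 kb bins in the segment covered 8 bins, chr1:54600001-56200000. Its windows had a median of -0.04, with 58.1% below 0. In bins of 100 kb the longest run there covered 4 bins, chr1:54000001-54400000. Low medians of 200 kb bins in this part were thus not particular to F2, and both comparisons share the control pools. These runs were picked out after their values were seen, within a segment chosen for lower F2 windows, and were not tested.

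**Figure D3:**
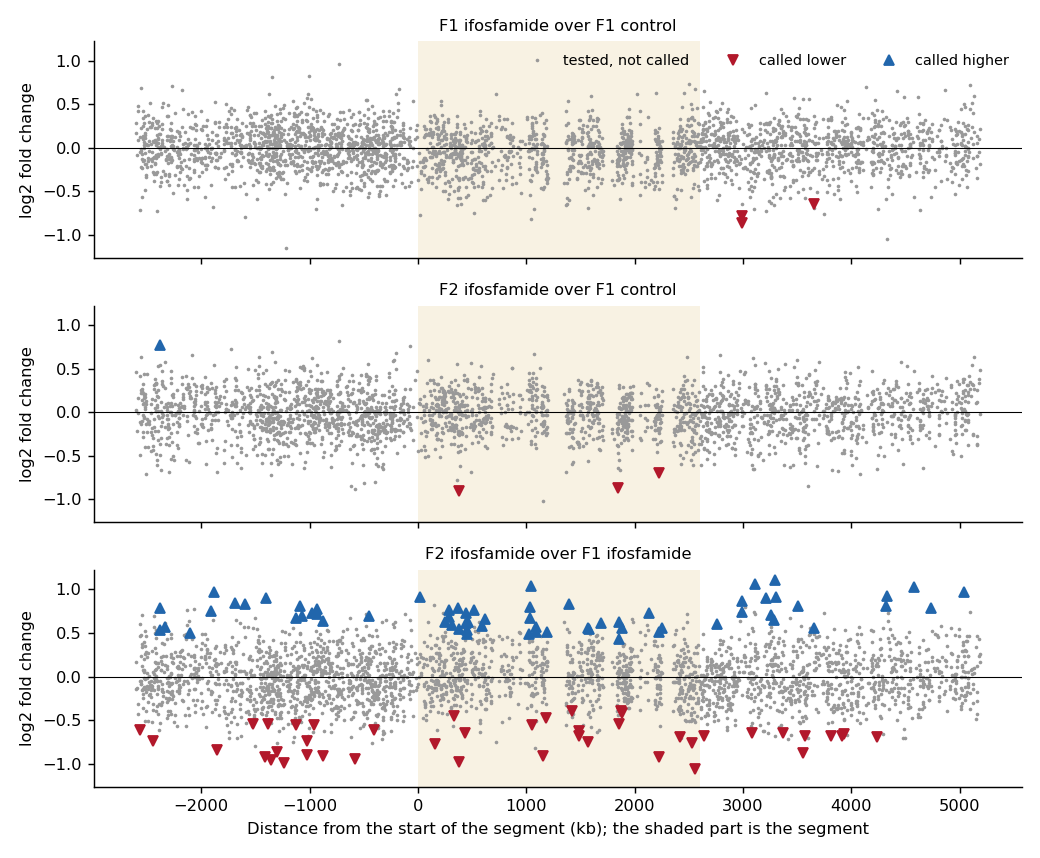
Log2 fold changes of all tested windows in the segment (shaded) and flanks, by distance from the start of the segment, for the 3 comparisons. Triangles mark called windows. In F2 ifosfamide over F1 control 3 of 895 windows of the segment are called, all lower, within a cloud centred at a median of -0.014; in F2 over F1 ifosfamide 18 lower and 32 higher windows lie interspersed.

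The first of the 3 lower windows was chr1:54181001-54182000. It had 1.69 to 3.24 CPM in F1 control (median 1.91), 1.36 to 3.02 in F1 ifosfamide (median 2.29) and 0.765 to 1.75 in F2 ifosfamide pools (median 0.917). F2 pools 3 to 6 lay between 0.765 and 0.922 CPM, while pools 1 and 2, at 1.75 and 1.44, were closer to the control pools, and pool 1 overlapped them. Group means were 2.10 ± 0.573, 2.22 ± 0.577 and 1.10 ± 0.401 CPM (SD, n = 6 each). The log2 fold change of F2 ifosfamide over F1 control, a value used in the choice, was -0.91 (SE 0.15).

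The second, chr1:55649001-55650000, had 1.55 to 3.05 CPM in F1 control (median 1.70), 1.06 to 2.36 in F1 ifosfamide (median 1.54) and 0.749 to 1.43 in F2 ifosfamide pools (median 1.13). The F2 pools lay below all control pools, and the F1 ifosfamide pools overlapped both. Group means were 2.01 ± 0.597, 1.57 ± 0.462 and 1.09 ± 0.297 CPM (SD, n = 6 each). The log2 fold change of F2 ifosfamide over F1 control was -0.87 (SE 0.15). Without control pool 3, which was the highest at 3.05 CPM, it was -0.72 and no longer called. No result from DESeq2, an alternative test, is available for this window.

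The third, chr1:56026001-56027000, had 2.31 to 3.63 CPM in F1 control (median 2.81), 2.78 to 4.04 in F1 ifosfamide (median 3.21) and 0.974 to 2.19 in F2 ifosfamide pools (median 1.79). The F2 pools lay below all pools of both other groups. Group means were 2.84 ± 0.486, 3.33 ± 0.471 and 1.74 ± 0.450 CPM (SD, n = 6 each). The log2 fold change of F2 ifosfamide over F1 control was -0.70 (SE 0.13). It was no longer called without control pool 3, without F2 pool 4, without F2 pool 6 or with all 3 groups in 1 fit, at -0.62, -0.58, -0.67 and -0.70. In the authors' deposited table this window did not pass either, at an adjusted p of 0.05196 (the authors' edgeR test).

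Control pool 3 was the highest control pool in all 3 windows. Its TMM factor, which corrects for the composition of a library, was 0.985, against 0.9998 to 1.0073 in the other control pools. Scaled by library totals only, without TMM factors, the 3 windows stayed called, at log2 fold changes of -0.90, -0.87 and -0.70. Adjusted p was then 0.000969, 0.00224 and 0.0101 (edgeR's quasi-likelihood test). Why control pool 3 was the highest was not tested. Without control pool 3, the count of lower windows in the segment was 1. Without control pool 4, control pool 6 or F2 pool 1, it was 6, 5 and 6.

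**Figure D4:**
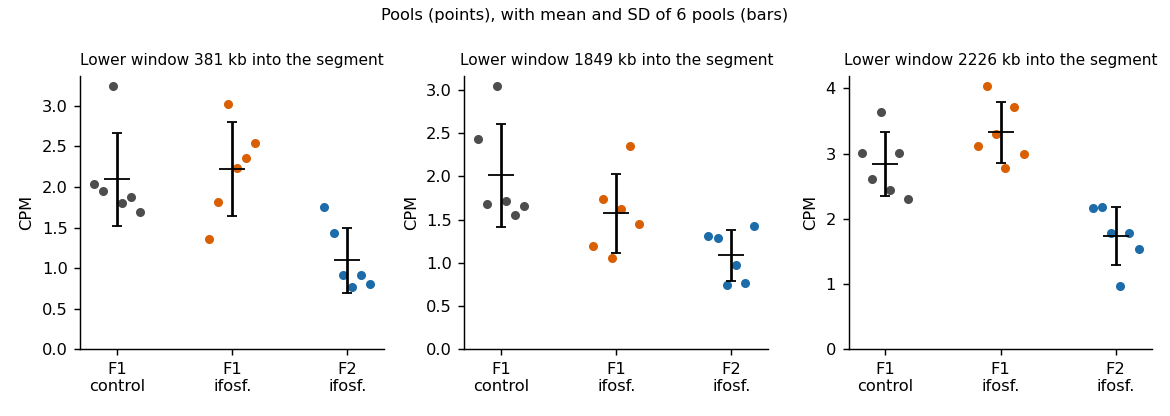
CPM of the 3 windows called lower in F2 ifosfamide against F1 control, in every pool. Points are pools, bars give the mean and SD of 6 pools, and the titles give the distance from the start of the segment. In the window at 2226 kb every F2 pool, at 0.974 to 2.19 CPM, lies below every F1 pool; at 381 kb F2 pool 1 overlaps the control pools.

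The windows just past the threshold were chr1:55658001-55659000, with a log2 fold change of -0.55, chr1:55650001-55651000, with -0.64, and chr1:55223001-55224000, with -0.59. The window at 55650001 adjoins the second called window. It had 1.27 to 3.13 CPM in F1 control (median 1.93) and 0.980 to 1.82 in F2 ifosfamide pools (median 1.34), and these ranges overlapped. When each pool was left out in turn, it was called in 3 of 12 fits, with a lowest adjusted p of 0.00849 (edgeR's quasi-likelihood test). The windows at 55658001 and 55223001 were called in 3 and 1 of 12 such fits. Pools that did not overlap, with F2 lower, were found in 3 of the 895 windows, of which 2 are called, against 0.231% over the genome. In the upstream flank, with more tested windows than the segment, there were 10 such windows. In the downstream flank, with fewer tested windows, there were 6. The opposite order was found in 0 of the 895 windows, against 0.241% over the genome. Both genome shares were counted on library totals without TMM factors, whereas the segment and flanks were counted with them. It was found in 2 windows of the upstream and 0 of the downstream flank. More windows with F2 lower than with F2 higher were thus seen in both flanks too.

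The 3 called windows did not adjoin. Their starts were 1468 kb and 377 kb apart. Within 5 kb of chr1:54181001-54182000, 3 of 9 tested neighbours had a log2 fold change below 0, with a median of 0.05. Around chr1:55649001-55650000, 8 of 10 neighbours were below 0, with a median of -0.15, and around chr1:56026001-56027000, 7 of 9 were below 0, with a median of -0.04. None of these neighbours was called in this comparison. Within 10 kb, 9 of 17, 15 of 19 and 10 of 14 tested neighbours were below 0, with medians of -0.02, -0.10 and -0.08 in the same order. Neighbours of the windows at 55649001 and 56026001 thus leaned the same way without being called, and those of the window at 54181001 lay on both sides of 0. In F1 ifosfamide against F1 control, 10 of 10 neighbours of the second window were also below 0, with a median of -0.18 and none called.

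**Figure D5:**
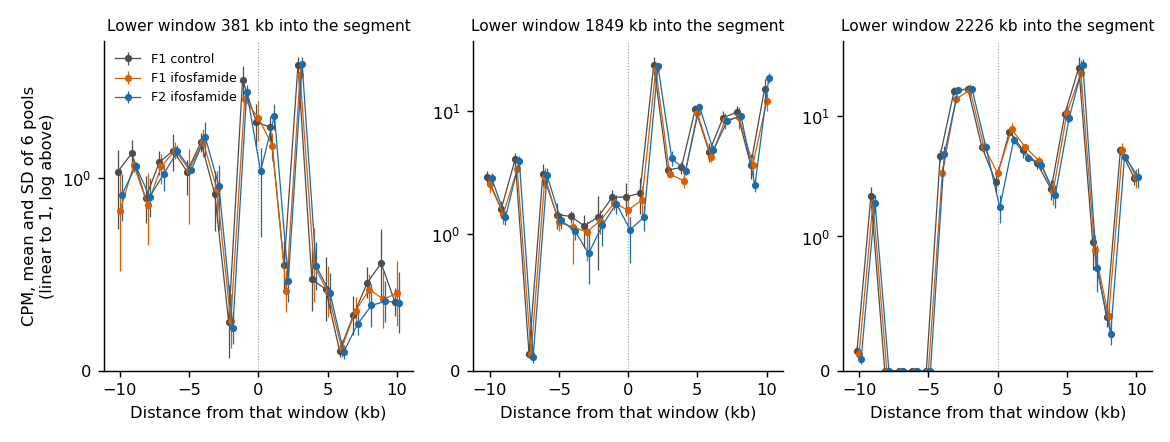
CPM in the 1 kb windows around each of the 3 lower windows (dotted line), as mean and SD of 6 pools; the axis is linear to 1 CPM and logarithmic above. F2 ifosfamide separates from F1 control at the dotted line, with 1.10 against 2.10, 1.09 against 2.01 and 1.74 against 2.84 CPM, and lies near it in most neighbouring windows.

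Summed over the 3 windows, the signal was 5.65 to 9.93 CPM in F1 control (median 6.34), 5.68 to 8.43 in F1 ifosfamide (median 7.19) and 2.71 to 5.23 in F2 ifosfamide pools (median 3.62). F2 pools were lower than all F1 pools of either lineage. This order follows in part from the choice of the windows. Deviations of the 18 pools from their group means correlated between the 3 windows at r = 0.407, 0.585 and 0.397 (Spearman's rho 0.333, 0.546 and 0.395). These values are a description, since the windows share their libraries.

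Where F1 ifosfamide was compared with F1 control, 977 windows of the segment were tested and 0 were called lower or higher by edgeR's quasi-likelihood test. Over the genome 0.0535% were called lower and 0.00489% higher. In the downstream flank 3 of 965 tested windows, or 0.311%, were called lower and 0 higher. In the upstream flank 0 of 1278 were called. At an unadjusted p below 0.05, 110 windows of the segment, or 11.3%, stood out, against 6.9% over the genome. DESeq2 called 2 lower windows of the segment, and leaving out control pool 1 gave 2. The median log2 fold change was -0.039, with 55.8% of windows below 0, against 0.016 and 0.008 in the flanks and 0.002 over all tested windows. The SD of this median between pools was 0.016. Without the filter on low counts it was -0.011. The comparison shares its control pools with the one that chose the segment. In the authors' deposited table for this comparison 0 of 945 windows of the segment passed an adjusted p of 0.05.

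The 3 lower windows were not called in F1 ifosfamide. Their log2 fold changes over F1 control were 0.07 at 54181001 (SE 0.15, adjusted p = 0.966), -0.36 at 55649001 (SE 0.16, adjusted p = 0.654) and 0.22 at 56026001 (SE 0.13, adjusted p = 0.792). Only the second thus leaned in the direction of F2.

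F2 ifosfamide was also compared with F1 ifosfamide, its own lineage a generation earlier. This comparison shares the F2 pools with the one that chose the segment, and generation and pool size differ together in it. Of 978 tested windows, 18 were called lower and 32 higher, or 1.84% and 3.27%. Over the genome 0.836% were called lower and 1.18% higher. In the upstream flank 16 of 1283 tested windows were lower and 17 higher, or 1.2% and 1.3%. In the downstream flank 9 of 973 were lower and 16 higher, or 0.9% and 1.6%. The median log2 fold change of the segment was 0.01, against -0.005 over all tested windows. In the upstream and downstream flanks it was -0.0355 and -0.0248, and the SD of the segment median between pools was 0.022. Lower and higher windows were thus both present in the segment. Its median lay near that of the genome and above those of both flanks, which was not tested.

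The segment holds many strong windows, in which a given fold change is easier to detect. The comparison was therefore repeated, after the values had been seen, for windows with a mean of at least 2 CPM. Of 211 such windows in the segment, 10 were lower and 13 higher, or 4.74% and 6.16%. Over the genome 1.47% of such windows were called lower and 8.08% higher. In the flanks together 1 of 70 such windows was lower and 8 were higher. Among strong windows the segment had a larger share of lower and a smaller share of higher calls than the genome, which was not tested. The segment was chosen for lower windows in these same F2 pools, so nothing is read from these shares. Signal was not matched among the strong windows, whose median was 4.09 CPM in the segment and 2.41 in the flanks.

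The lower windows of this comparison had log2 fold changes of -1.06 to -0.40, with a median of -0.67. They included 2 of the 3 windows above, namely chr1:54181001-54182000 (log2 fold change -0.98, SE 0.16, adjusted p = 5.85e-05) and chr1:56026001-56027000 (-0.93, SE 0.14, adjusted p = 7.55e-06). The window chr1:55649001-55650000 was not called (-0.51, SE 0.16, adjusted p = 0.0747). In chr1:54233001-54234000, F1 ifosfamide pools had 2.89 to 4.32 CPM (median 3.95) and F2 pools 2.02 to 2.68 (median 2.43), so that the groups did not overlap. F1 control pools, at 2.54 to 3.70 CPM (median 3.22), lay between and overlapped both. In 17 of the 18 lower windows the mean of F1 control lay between the means of F1 and F2 ifosfamide, and in 7 of the 18 it was nearer to F2. This order follows in part from the choice of windows by the difference between the ifosfamide groups.

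The higher windows had log2 fold changes of 0.43 to 1.04, with a median of 0.61. The largest was chr1:54840001-54841000, with 0.312 to 0.556 CPM in F1 ifosfamide (median 0.362) and 0.610 to 1.29 in F2 ifosfamide pools (median 0.739; log2 fold change 1.04, SE 0.21, adjusted p = 0.00156). The groups did not overlap. The smallest p belonged to chr1:54244001-54245000, with 4.52 to 11.5 CPM in F1 ifosfamide (median 5.91) and 10.5 to 13.0 in F2 ifosfamide pools (median 12.0; log2 fold change 0.73, SE 0.13, adjusted p = 0.00019). F1 control pools ranged there from 5.91 to 15.3 CPM (median 9.67), which overlapped both groups, and the F1 ifosfamide pools overlapped the F2 pools through pool 1 at 11.5 CPM.

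A strong window, chr1:55659001-55660000, had 10.1 to 15.4 CPM in F1 ifosfamide (median 11.3), 16.2 to 21.6 in F2 ifosfamide (median 18.4) and 11.1 to 19.8 in F1 control pools (median 15.2). F2 pools were higher than all F1 ifosfamide pools and overlapped the control pools. The log2 fold change of F2 over F1 ifosfamide was 0.62 (SE 0.11, adjusted p = 0.000447). The window directly before it, chr1:55658001-55659000, changed in the opposite direction, with a log2 fold change of -0.55 (SE 0.13, adjusted p = 0.00854). The same was seen at chr1:54181001-54182000, which was lower, and the adjoining window at 54182001, which was higher by 0.55 on the log2 scale (SE 0.14, adjusted p = 0.0182).

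In all 32 higher windows the mean of F1 control lay between those of the ifosfamide groups, and in 23 of them it was nearer to F2. The windows were chosen by the difference between the ifosfamide groups, so a control mean between them follows in part from that choice. No such count was made for uncalled windows, and no return to the control level is read from it. None of the 32 was called in either comparison with F1 control. In chr1:54418001-54419000, F1 ifosfamide pools, at 1.16 to 1.80 CPM (median 1.43), lay below all F1 control pools, at 1.81 to 2.66 (median 2.19), while F2 ifosfamide pools had 1.89 to 2.51 (median 2.35). The log2 fold change was -0.60 for F1 ifosfamide over F1 control (SE 0.15, adjusted p = 0.0828), 0.05 for F2 ifosfamide over F1 control (SE 0.13) and 0.66 for F2 over F1 ifosfamide (SE 0.14, adjusted p = 0.00277). The comparisons share pools, so these values are set side by side and are not independent.

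The called windows were scattered. The 18 lower windows fell into 11 and the 32 higher windows into 14 of the 26 bins of 100 kb. Adjoining windows called in the same direction occurred as 1 lower pair, chr1:55288001-55290000, and 4 higher pairs, chr1:54088001-54090000, chr1:54244001-54246000, chr1:54251001-54253000 and chr1:54836001-54838000. A fragment can span a window border, so neighbours are not independent. Counts of calls depended on single pools. Without F1 ifosfamide pool 3 there were 8 lower and 17 higher windows, and the lower count was also 8 without F2 pool 2, 3 or 4 and 11 without F1 ifosfamide pool 5 or F2 pool 6. The higher count was 20 without F1 ifosfamide pool 6 or F2 pool 4, and 21 without F2 pool 3.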

How the data were processed

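MeDIP-seq libraries of rat sperm pools were analysed as deposited. Counts of reads per 1 kb window were made by the authors, and are named as counts per the file headers. The tools named in the submitters' processing notes are Bowtie2, SAMtools, Trimmomatic, FastQC and edgeR, with Rnor_6.0 as the build. No version or setting is given in the sources used here. Both tables hold the same 6 F1 control columns and were joined. The authors' deposited log2 fold changes, turned to ifosfamide over control, and the authors' deposited p-values were only set beside the fits made here.

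Each of 3 comparisons was fitted on all windows with edgeR 4.0.16 in R 4.3.3 (TMM, filterByExpr with a minimum count of 10, quasi-likelihood test, 2-sided, no covariates), with Benjamini-Hochberg adjustment over all tested windows. The fit was tested on simulated data. Sums over the segment and flanks were compared by exact permutation tests, adjusted over 8 tests. Libraries held 23336048 to 39440265 counts. Intervals between pools cover neither founder differences nor males shared between pools.

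The segment, its flanks and the tests were chosen with earlier results of these data known. Named windows are those called in any comparison (the 12 with the smallest p where a comparison and direction had more), the 3 just past the threshold for lower F2 signal against F1 control, and the 3 with the highest mean signal; other windows were named after their values were seen. Of 34 libraries in the labels, 16 (F0 and F2 control) were not analysed here. The planned description of sequence composition was left out, because no Rnor_6.0 genome was used. DESeq2 1.42.0, other filters and scalings, bins of 200 kb, shorter flanks, a replicate block and leaving out each pool were tried as alternatives.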

Additional observations from a re-analysis of the deposited data

Results flagged for a closer look

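A pool was looked for that stood apart from the other 5 of its group, by the gap to its nearest neighbour relative to the range of the group. Such a pool was found in 6 of 102 groups of values examined, and chance gives about 1 in 20. At chr1:54181001-54182000, F1 control pool 3 had 3.24 CPM and the other control pools 1.69 to 2.03 CPM. In the upstream flank, F1 ifosfamide pool 5 summed to 1196 CPM and the others to 1132.7 to 1154.8 CPM. The same pool had 3.08 CPM at chr1:55650001-55651000, where the others had 1.56 to 1.81 CPM. F2 ifosfamide pool 1 had 4.65 CPM at chr1:54136001-54137000 (others 3.3 to 3.62 CPM), and 0.547 CPM at chr1:54955001-54956000 (others 0.139 to 0.292 CPM). F2 ifosfamide pool 5 had 0.401 CPM at chr1:56358001-56359000, where the others had 0.209 to 0.278 CPM. F1 control pool 3 and F1 ifosfamide pool 5 had the lowest TMM factors of the 18 libraries, at 0.985 and 0.980; their part in these values was not tested.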

How the results depend on the processing

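Of 2114 values recomputed under an alternative, 2023 kept their side of the threshold or moved within the spread. No called value changed sign, while 35 values of uncalled windows, medians, sums and ratios near 0 did. Lower windows of the segment in F1 ifosfamide against F1 control numbered 0, but 2 with DESeq2, and 1 with F1 ifosfamide pools 1 and 2 summed, with all 3 groups in 1 fit or without the filter on low counts; the range without each pool in turn was 0 to 2. Without that filter, which adds windows of few counts, the median log2 fold change was -0.011 in that comparison and, with a changed sign, -0.012 in F2 over F1 ifosfamide. Lower F2 windows against F1 control numbered 1 to 6 without each pool in turn. In F2 over F1 ifosfamide, DESeq2 called 20 higher windows, and 11 were lower without the filter; without each pool in turn 8 to 21 were lower and 17 to 44 higher. Without the top 1% of windows the log2 segment-to-flank ratio of F2 differed from that of F1 ifosfamide by 0.046. The downstream flank differed by -0.042 between F2 ifosfamide and F1 control with flanks of 1 Mb. The upstream flank differed by -0.0250 to -0.0094 between F2 and F1 ifosfamide without each pool in turn. The cause was not tested for any of these.

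Deviations of same-numbered pools were at most weakly correlated (r from -0.12 to 0.06). Whether such pools share more than a number was not tested. With the replicate number as a block, 5 windows were lower in F2 ifosfamide against F1 control and 10 in F2 against F1 ifosfamide. Depth limits the windows of low signal, since 895 to 978 of 2600 could be tested.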
